A study of Mus musculus with 6 samples.

Results

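Small RNA genes were described as a class in a table of chromatin accessibility of mouse NIH/3T3 cells, an established line of embryonic fibroblasts. The regions were those that the table assigned to a gene of type miRNA, snoRNA, snRNA, scaRNA, misc_RNA or rRNA, at any distance to the transcription start site (TSS), which gave 1142 of the 63430 regions and 899 genes. They comprised 453 miRNA, 231 snoRNA, 280 snRNA, 4 scaRNA, 118 misc_RNA and 56 rRNA regions. ATAC-seq, an assay that reads open DNA by where a transposase can cut it and tag the ends, gave the signal. There were 3 libraries from cells transfected with a guide RNA against the Actg1 mRNA (Actg1 guide), and 3 from cells transfected with a guide RNA against GFP (GFP guide), the control. The knock-in that both groups carried was Cas13d, a CRISPR enzyme which cuts the RNA its guide pairs with, not DNA. The study asked how decay of an mRNA bears on transcriptional adaptation, a response in which the breakdown of one transcript is followed by changed transcription of other genes. The labels give neither the time after transfection nor whether the knock-in cells were 1 clone. ATAC-seq measures no RNA, so the level of the Actg1 mRNA could not be checked.

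Small non-coding RNAs serve the cell in several ways. A microRNA is cut by Drosha and Dicer from a hairpin and guides Argonaute to mRNAs that pair with its seed (bases 2 to 8). Small nuclear RNAs (snRNAs) form the core of the spliceosome, while small nucleolar RNAs (snoRNAs) direct the chemical modification of ribosomal RNA and, as scaRNAs in Cajal bodies, of snRNAs. The misc_RNA type holds Y, vault and 7SL RNAs beside other structured RNAs, and the rRNA type holds 5S genes and their copies. Many microRNA and snoRNA genes lie in introns of host genes and are made from the host transcript, and small RNA genes have many near-identical copies in the mouse genome.

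The mature sequences below belong to the microRNA genes whose regions are described in detail, and they show which of these genes share a seed. They were taken from RefSeq (GRCm38.p6), are written 5′ to 3′ and carry the seed in capitals. The table named none of the small RNA genes, so names came from RefSeq genes at the same coordinates. 193 microRNA genes had the same start and end as a RefSeq hairpin, 189 of them had a mature sequence, and 22 seeds were shared by at least 2 of these genes.
let-7b-5p: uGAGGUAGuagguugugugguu
let-7i-5p: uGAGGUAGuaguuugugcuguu
miR-26a-5p: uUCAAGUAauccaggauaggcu
miR-26b-5p: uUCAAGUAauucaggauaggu
miR-29a-3p: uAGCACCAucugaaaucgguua
miR-29b-3p: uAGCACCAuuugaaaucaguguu
miR-148a-3p: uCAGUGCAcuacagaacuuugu
miR-148b-3p: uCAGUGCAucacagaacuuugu
miR-193a-3p: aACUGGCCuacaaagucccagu
miR-193b-3p: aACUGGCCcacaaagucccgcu
miR-365-3p: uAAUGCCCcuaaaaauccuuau
miR-21a-5p: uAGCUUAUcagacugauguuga
miR-21c: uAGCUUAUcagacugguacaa
miR-129-5p: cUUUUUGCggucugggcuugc
miR-30a-5p: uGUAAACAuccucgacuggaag
miR-139-5p: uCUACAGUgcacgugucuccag
miR-185-3p: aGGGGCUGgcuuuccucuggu

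All values below are the deposited signal, a read count per region that had been normalized and rounded. The estimated reads in regions were 5676057 to 9526703 in the Actg1 guide libraries and 6785438 to 9472166 in the GFP guide libraries. Summed over all small RNA gene regions the signal was 106134, 107610 and 106453 in the Actg1 guide libraries, against 104937, 106364 and 106273 in the GFP guide libraries, which overlap. As a share of each library's signal these sums were 1.380%, 1.402% and 1.384% with the Actg1 guide, against 1.357%, 1.365% and 1.357% with the GFP guide, without overlap. The first 2 GFP guide replicates were no further apart than sampling noise and entered as 1 sample, which left 3 Actg1 guide samples against 2 GFP guide samples. Of 10 fibroblast marker genes, 8 had a region within 1 kb of the TSS, with a median signal of 336 over 9 regions, while 1 of 4 epithelial, 0 of 3 endothelial and 1 of 4 immune marker genes had one. The labels do not say whether replicates were separate cultures, so the spread behind the p-values is that between samples and may be technical. In bulk libraries, fewer cells with an open region and a weaker opening per cell cannot be told apart.

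The small RNA gene regions changed in both directions and about as often as the table as a whole. Of 1104 regions tested, 255 gained signal under the Actg1 guide and 218 lost it, 42.8% in all (limma on log2(signal + 1), adjusted p under 0.05 over all regions), against 41.3% of all 61327 regions tested. Called changes of 2-fold or more numbered 85 higher and 58 lower, where 6.13% and 6.03% of all regions passed. The values of the 3 libraries of each group did not overlap in 555 regions, 50.3%, against 50.8% of all regions. The median log2 fold change was 0.02 over the small RNA gene regions and -0.01 over all regions.

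By type, the balance of direction varied. The snoRNA regions had 67 of 221 higher and 43 lower, shares of 30.3% and 19.5%, beside 20.6% and 20.7% over all regions, and their median log2 fold change was 0.14. The snRNA regions had 63 of 269 higher and 51 lower, with a median of 0.01. The miRNA regions had 87 of 441 higher and 84 lower, with a median of -0.01, and 38.8% called, the smallest share of the types with over 10 regions. The misc_RNA regions had 27 of 114 higher and 26 lower, and the rRNA regions 11 of 55 higher and 14 lower. None of the 4 scaRNA regions was called. Whether the balance differs between types beyond chance was not tested, since neighbouring regions are not independent. Without GFP guide replicate 3, 39 snoRNA regions were called higher and 11 lower.

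**Figure D1:**
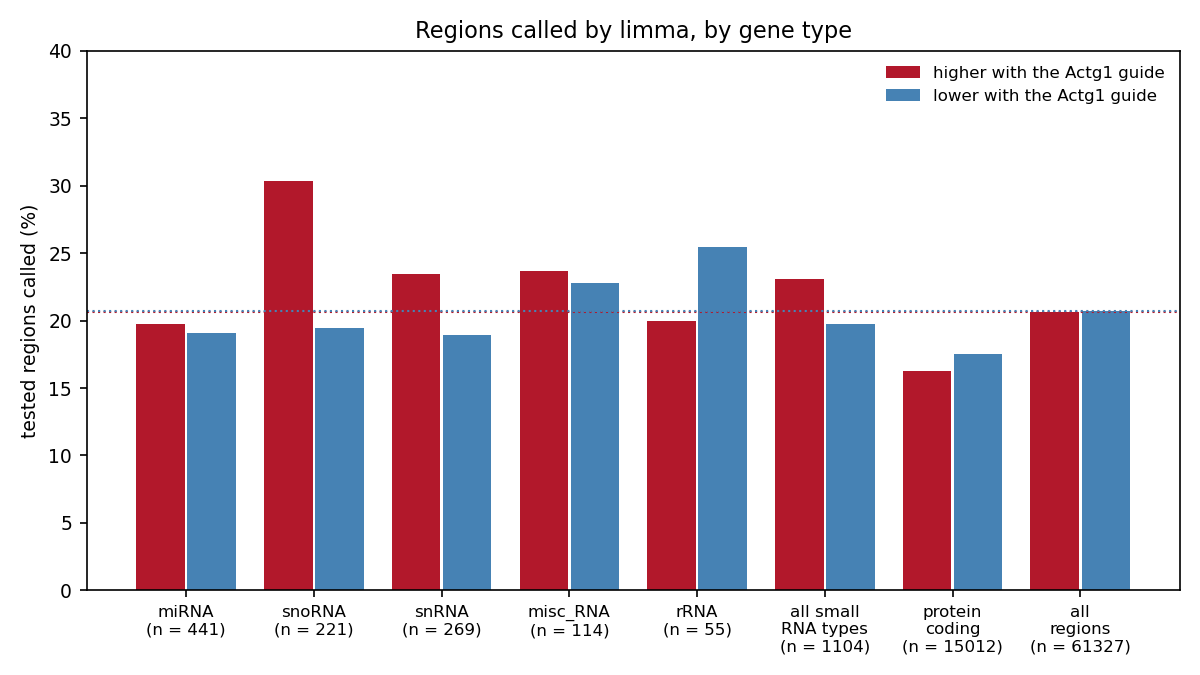
Share of tested regions called higher (red) or lower (blue) with the Actg1 guide, in percent, by gene type. Dotted lines mark the shares over all regions, 20.6% and 20.7%, and the highest bar is that of snoRNA regions called higher, 30.3%.

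The signal was also summed over the regions of each type in each library. The snoRNA regions summed to 20461, 20692 and 20586 in the Actg1 guide libraries, against 19177, 19319 and 19692 in the GFP guide libraries. The snRNA regions summed to 28909, 29442 and 29175 with the Actg1 guide, against 28252, 28583 and 28176 with the GFP guide. In both types every Actg1 guide library lay above every GFP guide library, by a ratio of means of 1.06 for snoRNA and 1.03 for snRNA regions. The miRNA regions ran the other way, with sums of 41680, 42280 and 41883 in the Actg1 guide libraries, against 42624, 43354 and 43361 in the GFP guide libraries. The total signal was itself lower with the Actg1 guide, at 7673745 to 7689108 against 7732413 to 7831438. As shares of that total the miRNA groups nearly met, at 0.5421%, 0.5510% and 0.5447% with the Actg1 guide, against 0.5512%, 0.5562% and 0.5537% with the GFP guide. The rRNA regions also lay lower, at 4393, 4524 and 4305 with the Actg1 guide, against 4662, 4751 and 4697 with the GFP guide. The sums of misc_RNA regions were 10284, 10242 and 10088 with the Actg1 guide, against 9754, 9973 and 9955 with the GFP guide, again without overlap. The scaRNA sums overlapped, at 407, 430 and 416 against 468, 384 and 392. As shares, the snoRNA, snRNA, misc_RNA and rRNA sums kept their direction without overlap. A large part of the rRNA difference lay in the strongest rRNA region, in Trerf1. That region had 550, 569 and 621 with the Actg1 guide, against 802, 867 and 828 with the GFP guide. The lower rRNA sums therefore do not describe the rRNA regions as a type. These sums are descriptions, dominated by the strongest regions, and were not tested.

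**Figure D2:**
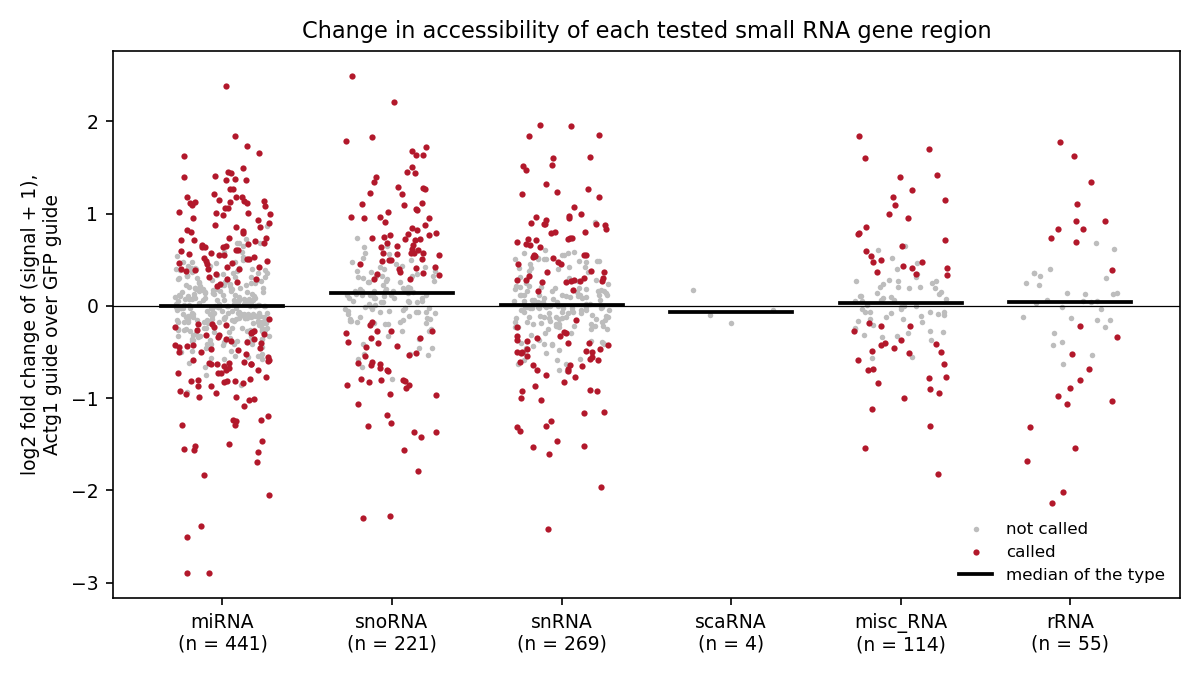
Log2 fold change of (signal + 1), Actg1 guide over GFP guide, of each tested region by gene type; red points are called, grey points are not, and black bars are medians. All types with over 10 regions spread to both sides of 0, from -2.90 to 2.50, and the snoRNA median lies at 0.14.

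Split by distance to the gene, the near snRNA and snoRNA regions had more rises than falls. Within 1 kb of the TSS, 24 of 59 snRNA regions were higher and 6 lower, and 19 of 53 snoRNA regions were higher and 6 lower, while over all regions within 1 kb of any TSS 14.0% were higher and 18.7% lower. Those regions were stronger, with a median signal of 242, against 79 for the near snRNA and 39 for the near snoRNA regions. Of 24 tested snRNA regions that overlapped their gene, 12 were higher and 1 lower. At 1 to 3 kb, 20 of 116 snRNA regions were higher and 29 lower, and 19 of 84 snoRNA regions were higher and 22 lower. Over all regions with a gene at that distance, 21.6% were higher and 17.6% lower. Beyond 3 kb, 19 of 94 snRNA regions were higher and 16 lower, while 29 of 84 snoRNA regions were higher and 15 lower, a share higher of 34.5% against 35.8% within 1 kb. All regions with a gene beyond 3 kb had 23.7% higher and 18.7% lower, beside 20.2% and 17.0% of the snRNA regions there. The difference between distances was not tested. Leaving out GFP guide replicate 3 left 1 GFP guide sample, and fewer of the near and overlapping regions were then called in each direction. The same held over all small RNA gene regions, where rises then made up a larger part of the calls. In a fit without a mean-variance trend, the near snRNA regions had 14 higher and 3 lower. The near snoRNA regions had 13 and 6 in that fit, and the overlapping snRNA regions 4 and 0. That fit called 17341 of all 61327 regions. For miRNA regions within 1 kb, 23 of 100 were higher and 20 lower. The median distance between region centre and TSS was 2332 bp, and 96 regions overlapped their gene, so most calls concern DNA beside a small RNA gene. Genes of 576 regions lay inside a protein-coding gene, and 12 regions held a coding promoter, promoters on chromosome 18 not being covered.

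Among microRNA genes, a list of 72 well-studied ones had a region for 18 genes, 23 regions in all. Of these, 6 were lower and 1 was higher, 30.4% called, a smaller share than the 41.3% of all regions, with a median log2 fold change of -0.13. The 6 lower regions belonged to Mir29b-2, Mir214, Mirlet7b, Mir30a, Mirlet7i and Mir210, and the higher one to Mir21a. Without GFP guide replicate 3, 2 were lower and 0 higher, and in the fit without a mean-variance trend 2 were lower and 1 higher. Mir210, a microRNA gene induced by low oxygen, had 531, 472 and 516 with the Actg1 guide, against 589, 546 and 597 with the GFP guide (log2 fold change -0.20, adjusted p = 0.00766). Mir214, in Dnm3, had 40, 30 and 42 at 2523 bp with the Actg1 guide, against 75, 60 and 49 with the GFP guide (log2 fold change -0.62, adjusted p = 0.0102). Neither pair of groups overlapped, and both calls ended without Actg1 guide replicate 2 and in the fit without a trend, that of Mir210 also without GFP guide replicate 3, with adjusted p up to 0.2 for Mir210 and 0.08 for Mir214.

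Mirlet7i and Mirlet7b, members of the let-7 family that restrains growth-promoting mRNAs, share the seed printed above. The region over Mirlet7i (chr10:122985290-122986607, mm10) had a signal of 492, 393 and 425 in the Actg1 guide libraries, against 525, 562 and 575 in the GFP guide libraries. The groups did not overlap, and the signal was 1.28-fold lower with the Actg1 guide (log2 fold change -0.36, standard error (SE) 0.07, adjusted p = 5.37e-05). The region 2024 bp from the Mirlet7b TSS (region 1, chr15:85709053-85709633) had 60, 68 and 64 with the Actg1 guide, against 84, 96 and 92 with the GFP guide. It also showed no overlap and was 1.42-fold lower (log2 fold change -0.50, adjusted p = 0.00543). A second Mirlet7b region at 3007 bp overlapped between groups, with 61, 66 and 73 against 91, 85 and 70, and was not called (adjusted p = 0.227). Without GFP guide replicate 3 neither call held (adjusted p = 0.07 for Mirlet7i and 0.0849 for Mirlet7b), and that of Mirlet7i also ended in the fit without a mean-variance trend (adjusted p = 0.093).

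The miR-26 genes lie in introns of the phosphatase genes Ctdspl, Ctdsp2 and Ctdsp1, and Mir26a-1 and Mir26a-2 encode the same mature 5p strand. The region 4223 bp from the Mir26a-1 TSS (region 1, chr9:119035821-119036217) had 187, 201 and 218 in the Actg1 guide libraries, against 296, 323 and 300 in the GFP guide libraries. The groups stood well apart, 1.51-fold lower with the Actg1 guide (log2 fold change -0.59, SE 0.09, adjusted p = 5.92e-07), and no alternative ended the call. A region at 1975 bp had 18, 19 and 20 with the Actg1 guide, against 36, 26 and 29 with the GFP guide, without overlap (log2 fold change -0.63, adjusted p = 0.0484). At Mir26a-2 the values were 75, 66 and 92 with the Actg1 guide, against 112, 91 and 100 with the GFP guide, and the groups overlapped by 1 library (log2 fold change -0.38, adjusted p = 0.0293). Both of these calls ended without Actg1 guide replicate 1 or 2 or GFP guide replicate 1 or 3, with adjusted p up to 0.154 for Mir26a-1 and 0.2 for Mir26a-2, and that of Mir26a-2 also in the fit without a trend. Mir26b had 366, 385 and 335 with the Actg1 guide, against 400, 405 and 404 with the GFP guide, without overlap, and was not called (log2 fold change -0.16, adjusted p = 0.0755).

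In the miR-29 and miR-148 pairs, 1 gene had a called region while the other did not. Mir29b-2 encodes a microRNA of a family known to limit collagen mRNAs, and its region at 2891 bp (chr1:195033897-195034400) had 88, 70 and 86 with the Actg1 guide, against 137, 144 and 157 with the GFP guide. The groups did not overlap and the fall was 1.83-fold (log2 fold change -0.87, SE 0.13, adjusted p = 8.11e-07). Mir29a, on another chromosome, had 173, 196 and 181 with the Actg1 guide, against 148, 178 and 160 with the GFP guide, and was not called (log2 fold change 0.18, adjusted p = 0.149). Mir148b lies in Copz1, a gene of the vesicle coat, and its region at 856 bp (chr15:103285851-103286110) had 13, 12 and 12 with the Actg1 guide, against 50, 63 and 52 with the GFP guide. The fall was 4.40-fold (log2 fold change -2.05, SE 0.26, adjusted p = 3.06e-08), and no alternative ended the call. Mir148a had 19, 15 and 15 with the Actg1 guide, against 16, 14 and 17 with the GFP guide, with no detectable difference at this depth (log2 fold change 0.02, SE 0.32). The difference between the genes of a pair was not tested.

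The Mir193 and Mir365 genes form a pair of clusters, Mir193a with Mir365-2 on chromosome 11 and Mir193b with Mir365-1 on chromosome 16. The region 3276 bp from the Mir365-2 TSS (region 1, chr11:79723049-79723199) had 2, 1 and 2 in the Actg1 guide libraries, against 22, 21 and 16 in the GFP guide libraries. This was the most negative log2 fold change of all small RNA gene regions (-2.90, SE 0.58, adjusted p = 8.02e-05), from signals that correspond to few reads. The region passed the filter through the GFP guide libraries alone and was too weak for the stricter filter of 20. A second region at 3391 bp had 23, 22 and 25 with the Actg1 guide, against 42, 38 and 31 with the GFP guide, without overlap, and just missed the threshold (log2 fold change -0.58, adjusted p = 0.0508). Mir193a in the same cluster had 298, 316 and 289 with the Actg1 guide, against 292, 320 and 301 with the GFP guide, and the groups overlapped (log2 fold change -0.01, adjusted p = 0.915). Mir193b had 154, 127 and 147 with the Actg1 guide, against 204, 191 and 184 with the GFP guide, a 1.34-fold fall (log2 fold change -0.42, adjusted p = 0.00139) whose call ended in the fit without a mean-variance trend (adjusted p = 0.0559). The region of Mir365-1 was too weak to be tested, with 3, 3 and 2 with the Actg1 guide, against 12, 8 and 17 with the GFP guide.

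**Figure D3:**
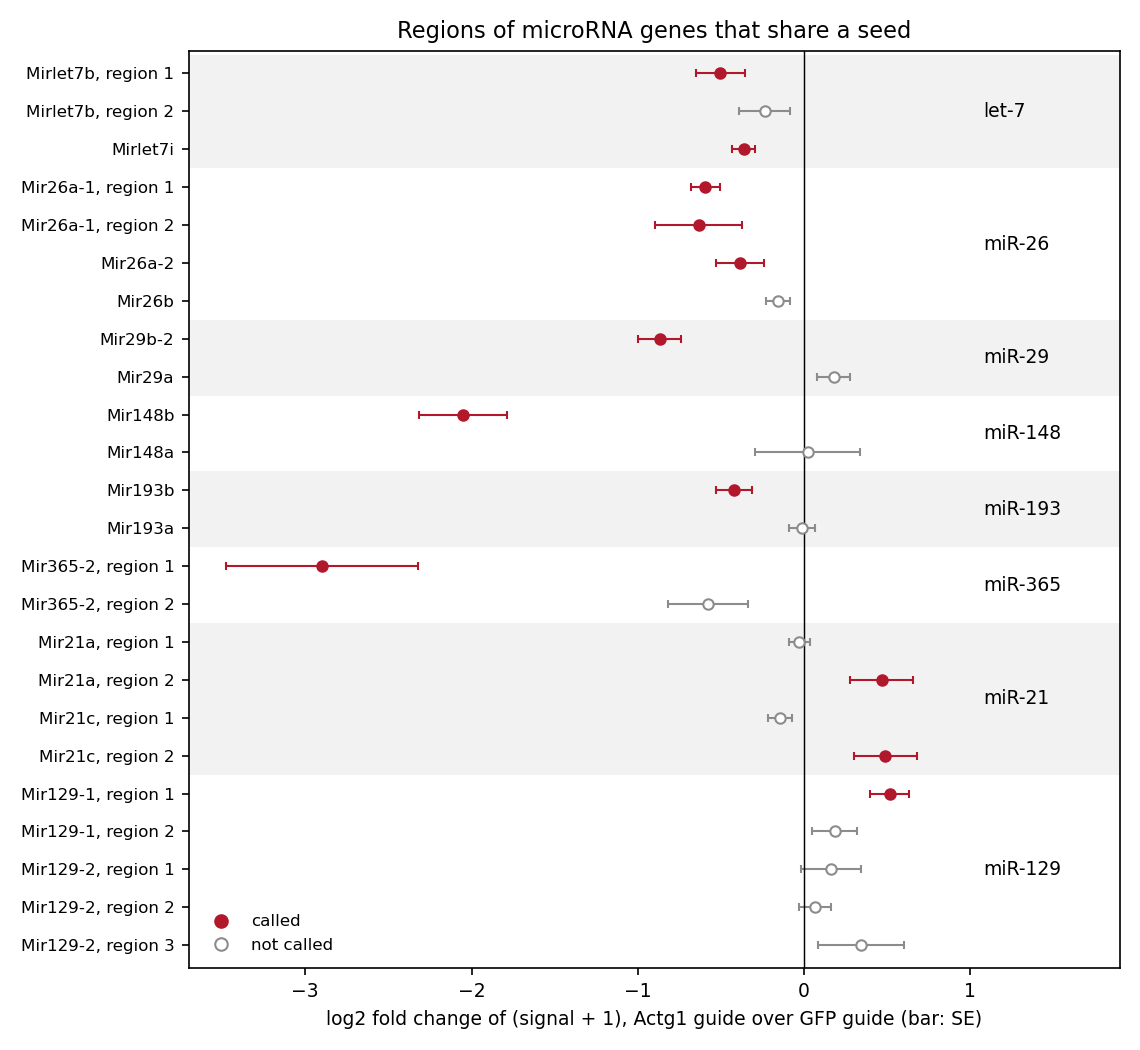
Log2 fold change of (signal + 1), Actg1 guide over GFP guide, with its SE, for regions of microRNA genes grouped by shared seed; filled red points are called, open grey points are not. All let-7, miR-26 and miR-365 points lie below 0, Mir148b and Mir29b-2 lie apart from Mir148a and Mir29a, and all miR-129 points lie above 0.

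Mir21a, an abundant microRNA of cultured fibroblasts at the end of Vmp1, had its stronger region at 2970 bp (chr11:86586746-86587510). That region had 464, 468 and 469 with the Actg1 guide, against 469, 517 and 460 with the GFP guide, and the groups overlapped (log2 fold change -0.03, SE 0.06, adjusted p = 0.757). A weaker region at 3670 bp had 56, 50 and 46 with the Actg1 guide, against 36, 39 and 35 with the GFP guide (log2 fold change 0.47, adjusted p = 0.0437). The values did not overlap, but the call ended under cyclic loess scaling and without Actg1 guide replicate 1 or 2 or GFP guide replicate 1 or 3, with adjusted p up to 0.213. Mir129-1, a brain microRNA gene, had 157, 145 and 156 at 782 bp with the Actg1 guide, against 91, 101 and 118 with the GFP guide, without overlap. That rise was 1.43-fold (log2 fold change 0.52, SE 0.12, adjusted p = 0.000373), and none of the other 4 regions of Mir129-1 and Mir129-2 was called. Mir21c, which shares the seed of Mir21a, had 55, 49 and 68 at 217 bp with the Actg1 guide, against 44, 51 and 34 with the GFP guide, with overlap (log2 fold change 0.49, adjusted p = 0.0344). That call ended under cyclic loess scaling, in the fit without a trend, and without Actg1 guide replicate 1 or 3 or GFP guide replicate 1 or 3, with adjusted p up to 0.478.

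Mir139, Mir185 and Mir6950 were chosen after their values were seen, like the seed families outside the list of well-studied genes. Mir139 lies in Pde2a, which encodes a phosphodiesterase, and its region at 748 bp (chr7:101474360-101474895) had 169, 160 and 155 with the Actg1 guide, against 83, 88 and 86 with the GFP guide. It was 1.88-fold higher in groups well apart (log2 fold change 0.90, SE 0.12, adjusted p = 2.66e-08). Mir185, in Tango2, had 105, 110 and 121 at 3770 bp (region 1) with the Actg1 guide, against 173, 193 and 189 with the GFP guide. It was 1.66-fold lower (log2 fold change -0.73, adjusted p = 1.09e-06), without overlap. The region over Mir6950 (chr14:69691799-69692911), in the gene of the collagen cross-linking enzyme Loxl2, had 148, 153 and 150 with the Actg1 guide, against 315, 318 and 324 with the GFP guide. The groups stood apart in a 2.13-fold fall (log2 fold change -1.09, SE 0.09, adjusted p = 1.1e-12). No alternative ended the calls of these 3 regions. Mir30a, whose seed is shared by the other miR-30 microRNAs, had 176, 132 and 147 with the Actg1 guide, against 201, 207 and 207 with the GFP guide (log2 fold change -0.45, adjusted p = 0.000806), a call that ended without GFP guide replicate 3 (adjusted p = 0.0825) and in the fit without a trend.

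**Figure D4:**
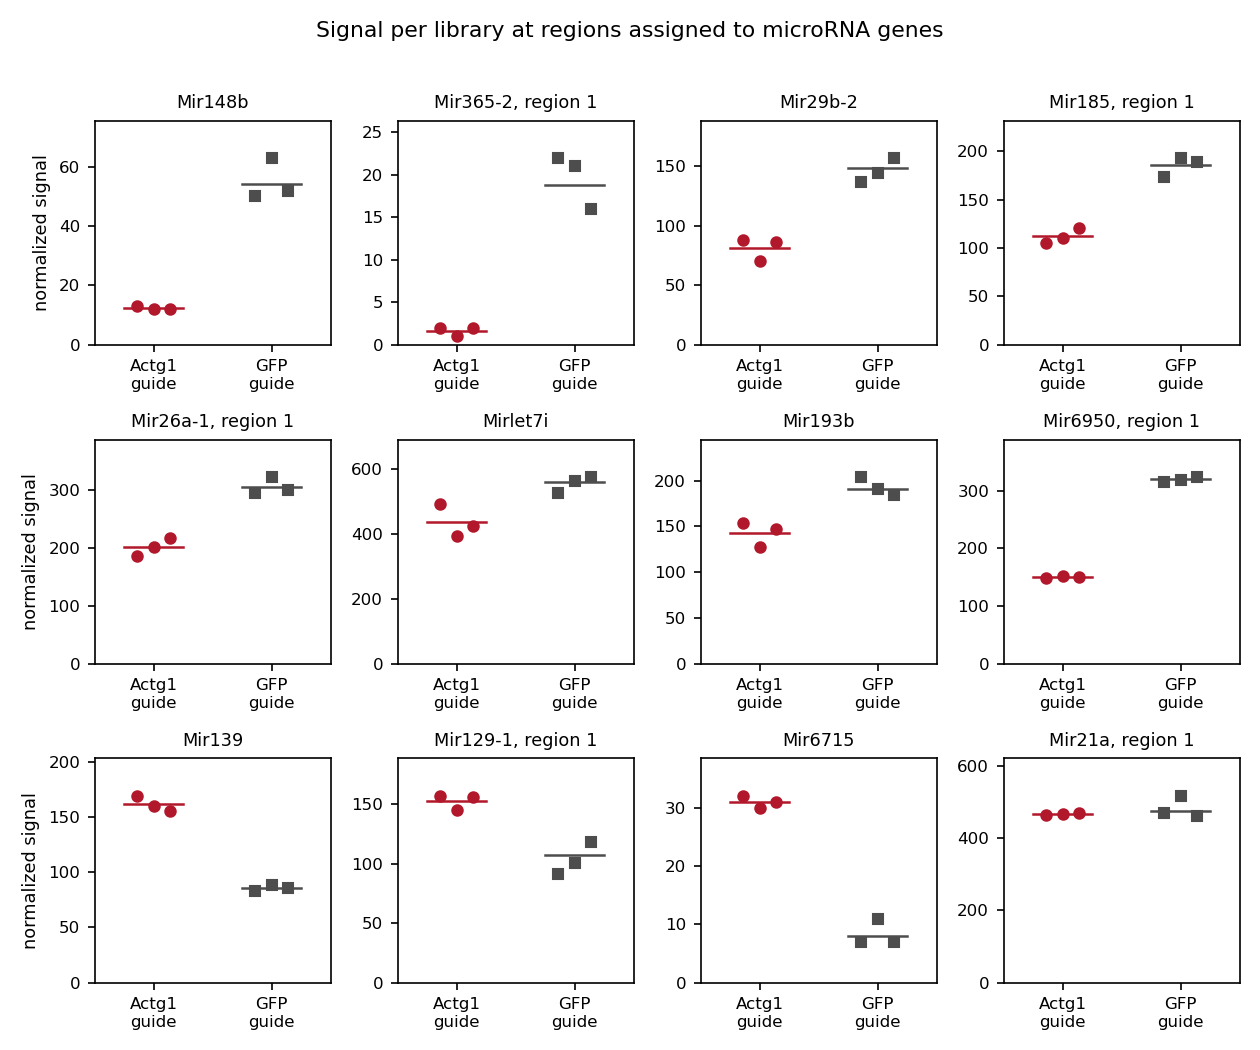
Normalized signal in each library at 12 regions assigned to microRNA genes, Actg1 guide (red circles) beside GFP guide (grey squares), with the group means as lines; each panel starts at 0. The groups do not overlap in 11 panels; in the Mir21a panel the Actg1 guide libraries, at 464 to 469, lie within the range of the GFP guide libraries, 460 to 517.

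The largest changes among miRNA regions were mostly at weaker regions. After Mir365-2, the largest falls were at Mir8108, in Tacc1, with 3, 3 and 1 in the Actg1 guide libraries against 28, 23 and 20 in the GFP guide libraries (log2 fold change -2.89), and Mir7049, in Pak4, with 3, 3 and 4 against 20, 21 and 27 (log2 fold change -2.51). A region 1281 bp from Mir6926, in Sgsm2, had 28, 26 and 33 with the Actg1 guide, against 103, 102 and 108 with the GFP guide (log2 fold change -1.83, adjusted p = 7.85e-11). The largest rise was at a miRNA gene inside Acoxl (chr2:127894979-127895181), with 20, 15 and 26 with the Actg1 guide, against 3, 3 and 3 with the GFP guide (log2 fold change 2.38, adjusted p = 8.54e-06). Mir6715, in Tectb, followed with 32, 30 and 31 with the Actg1 guide, against 7, 11 and 7 with the GFP guide (log2 fold change 1.84), and Mir7063, in Ap2a2, with 51, 65 and 54 against 17, 20 and 16 (log2 fold change 1.66). None of these groups overlapped, and no alternative that tested them ended these calls. Mir8108, Mir7049 and the region inside Acoxl passed the filter through 1 group alone, so their lack of overlap is no separate support. The region inside Acoxl was too weak for the stricter filter of 20. The strongest miRNA region, over Mir1938 and the promoter of its host gene Ifrd1, had 1222, 1183 and 1239 with the Actg1 guide, against 1334, 1362 and 1432 with the GFP guide. It was 1.14-fold lower (log2 fold change -0.19, adjusted p = 0.000215), and the call ended without GFP guide replicate 3 (adjusted p = 0.0576) and in the fit without a trend.

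For snRNA, snoRNA, Y and 7SL genes with a curated RefSeq symbol, a set singled out after its values were seen, 18 of 32 tested regions were higher and 0 were lower. These regions belonged to 21 genes, 27 of them had a positive log2 fold change, and the median was 0.33. Leaving out GFP guide replicate 3, or fitting without a mean-variance trend, gave 9 higher and 0 lower regions, and leaving out GFP guide replicate 1 gave 18 higher and 1 lower. With the background of 20.6% higher and 20.7% lower over all regions, this is a count on a set chosen for its names, and no test was made of it.

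The spliceosomal snRNA genes had broad, strong regions over the gene. Rnu5g, a U5 gene, had 960, 990 and 900 in the Actg1 guide libraries, against 799, 829 and 747 in the GFP guide libraries (chr9:65200676-65202132), and every Actg1 guide library was higher. The rise was 1.22-fold (log2 fold change 0.28, SE 0.05, adjusted p = 1.68e-05), and only the fit without a trend ended the call (adjusted p = 0.0962). Rnu1a1, a U1 gene, had 567, 526 and 564 with the Actg1 guide, against 504, 466 and 442 with the GFP guide (chr11:87422552-87423842), without overlap (log2 fold change 0.25, adjusted p = 0.00112). Rnu2-10, a U2 gene, had 667, 566 and 581 with the Actg1 guide, against 530, 555 and 455 with the GFP guide (chr11:101657770-101659689), again without overlap (log2 fold change 0.28, adjusted p = 0.000902). Without GFP guide replicate 3 the adjusted p was 0.109 for Rnu1a1 and 0.277 for Rnu2-10, both calls ended in the fit without a trend, and that of Rnu2-10 also ended without Actg1 guide replicate 1. Gm26316 and Gm22068, described next as neighbours, fell under no naming rule. Near Rnu2-10, the snRNA gene Gm26316 (chr11:101604558-101605629) had 161, 183 and 138 with the Actg1 guide, against 96, 101 and 95 with the GFP guide. That 1.66-fold rise (log2 fold change 0.72, adjusted p = 4.56e-06) was ended by no alternative. Near Rnu1a1, the snRNA gene Gm22068 had 161, 183 and 169 over the gene with the Actg1 guide, against 193, 199 and 189 with the GFP guide, and was not called (log2 fold change -0.17, adjusted p = 0.165). A second Gm22068 region at 786 bp had 62, 96 and 65 with the Actg1 guide, against 47, 56 and 42 with the GFP guide (log2 fold change 0.64, adjusted p = 0.0032), a call that ended without Actg1 guide replicate 2 or GFP guide replicate 3 and in the fit without a trend, with adjusted p up to 0.195. Reads of near-identical copies can be assigned to the wrong copy, and the handling of such reads is not stated in the sources used here.

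The largest snRNA changes lay at weaker regions of predicted copies. Gm24722, inside Thada, had 10, 9 and 26 with the Actg1 guide, against 83, 83 and 69 with the GFP guide (log2 fold change -2.42, adjusted p = 4.85e-09). Gm23941, inside Wls, the carrier of Wnt proteins, had 8, 8 and 9 with the Actg1 guide, against 38, 28 and 38 with the GFP guide (log2 fold change -1.97). Among the rises, Gm23538 had 35, 32 and 22 with the Actg1 guide, against 10, 3 and 7 with the GFP guide (log2 fold change 1.96, adjusted p = 2.68e-06). Both regions of Gm25515, inside Mthfd1l, a mitochondrial folate enzyme gene, were higher: 88, 87 and 102 against 29, 37 and 30 at 1448 bp (log2 fold change 1.52), and 123, 108 and 123 against 67, 63 and 58 at 3614 bp (log2 fold change 0.93). None of these groups overlapped, and no alternative ended these calls. The region of Gm23941 passed the filter through the GFP guide libraries alone, so its lack of overlap is no separate support.

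U3 is the snoRNA needed for the first cuts of the ribosomal RNA precursor, and 4 of its genes, Rnu3b1 to Rnu3b4, lie in the Tex14 locus on chromosome 11. The region 607 bp from the Rnu3b3 TSS (region 1, chr11:87448599-87449869) had 429, 389 and 401 with the Actg1 guide, against 348, 322 and 307 with the GFP guide. The groups did not overlap (log2 fold change 0.34, SE 0.07, adjusted p = 0.000191), and the call ended without GFP guide replicate 3 (adjusted p = 0.051) and in the fit without a trend (adjusted p = 0.0624). The region 854 bp from Rnu3b2 had 72, 82 and 71 with the Actg1 guide, against 44, 48 and 54 with the GFP guide (log2 fold change 0.58, adjusted p = 0.00335), and no alternative ended this call. Rnu3b4 had 359, 315 and 298 with the Actg1 guide, against 287, 287 and 278 with the GFP guide, without overlap, and was not called (log2 fold change 0.19, adjusted p = 0.0517). None of the other 5 U3 regions was called, with log2 fold changes of -0.25 to 0.16. These 4 genes are near-identical copies, so their values are not independent.

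All 3 regions of Snord89, a box C/D snoRNA gene, were higher. Over the gene (region 1, chr1:39548673-39549087) the signal was 47, 54 and 53 in the Actg1 guide libraries, against 19, 13 and 22 in the GFP guide libraries. The groups stood well apart (log2 fold change 1.40, SE 0.22, adjusted p = 1.34e-06). The region at 518 bp had 15, 11 and 14 with the Actg1 guide, against 3, 2 and 5 with the GFP guide (log2 fold change 1.63, adjusted p = 0.00343), and that at 3068 bp had 28, 26 and 38 against 19, 15 and 15 (log2 fold change 0.88, adjusted p = 0.00624). The region at 518 bp passed the filter through the Actg1 guide libraries alone. None of the 3 overlapped between groups, and the call at 3068 bp ended without GFP guide replicate 3 (adjusted p = 0.103). Gm25408, a predicted snoRNA gene on chromosome 12 noticed after its values were seen, had 3 of 4 regions higher. Its strongest change was at 369 bp, with 165, 149 and 175 with the Actg1 guide, against 85, 84 and 104 with the GFP guide (log2 fold change 0.79, adjusted p = 7.17e-07). Of the other two calls of Gm25408, one ended without Actg1 guide replicate 1 or GFP guide replicate 3 (adjusted p = 0.097) and the other without Actg1 guide replicate 1 and in the fit without a trend.

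Several snoRNA genes inside introns of ribosomal protein and other host genes had higher regions. Rises were not particular to this setting. For snoRNA genes inside a coding gene, 31 of 107 regions were higher and 21 lower, against 36 of 114 and 22 outside coding genes. Snord15b, in Rps3, had 31, 30 and 32 with the Actg1 guide, against 7, 10 and 8 with the GFP guide at 3959 bp (chr7:99475648-99475848). It was 3.76-fold higher without overlap (log2 fold change 1.79, SE 0.29, adjusted p = 3.11e-06). Snora65, in Rpl12, had 399, 411 and 376 with the Actg1 guide, against 327, 306 and 274 with the GFP guide (log2 fold change 0.42, adjusted p = 1.47e-05). Snora31, in Tpt1, had 244, 276 and 222 with the Actg1 guide, against 158, 192 and 200 with the GFP guide (log2 fold change 0.40, adjusted p = 0.00082). Both were higher in every Actg1 guide library, and the Snora31 call ended in the fit without a trend (adjusted p = 0.0841). Snora75, in the nucleolin gene Ncl, had 40, 31 and 32 with the Actg1 guide, against 21, 15 and 11 with the GFP guide (log2 fold change 1.22, adjusted p = 0.000245), with an adjusted p of 0.0521 without GFP guide replicate 3. The region of Snord83b, in Rpl3, had a log2 fold change of 0.29 and that over Snord52 one of 0.66, and both calls ended without GFP guide replicate 3 (adjusted p = 0.157 for Snord83b and 0.196 for Snord52) and in the fit without a trend. The snoRNA genes Snord95, in Rack1, Snord14e, in Hspa8, and Snora2b, in Kansl2, had no called region, with log2 fold changes of tested regions of 0.16 to 0.74. A region kilobases from the snoRNA may belong to the host gene as well, which the table, with 1 gene per region, does not show.

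**Figure D5:**
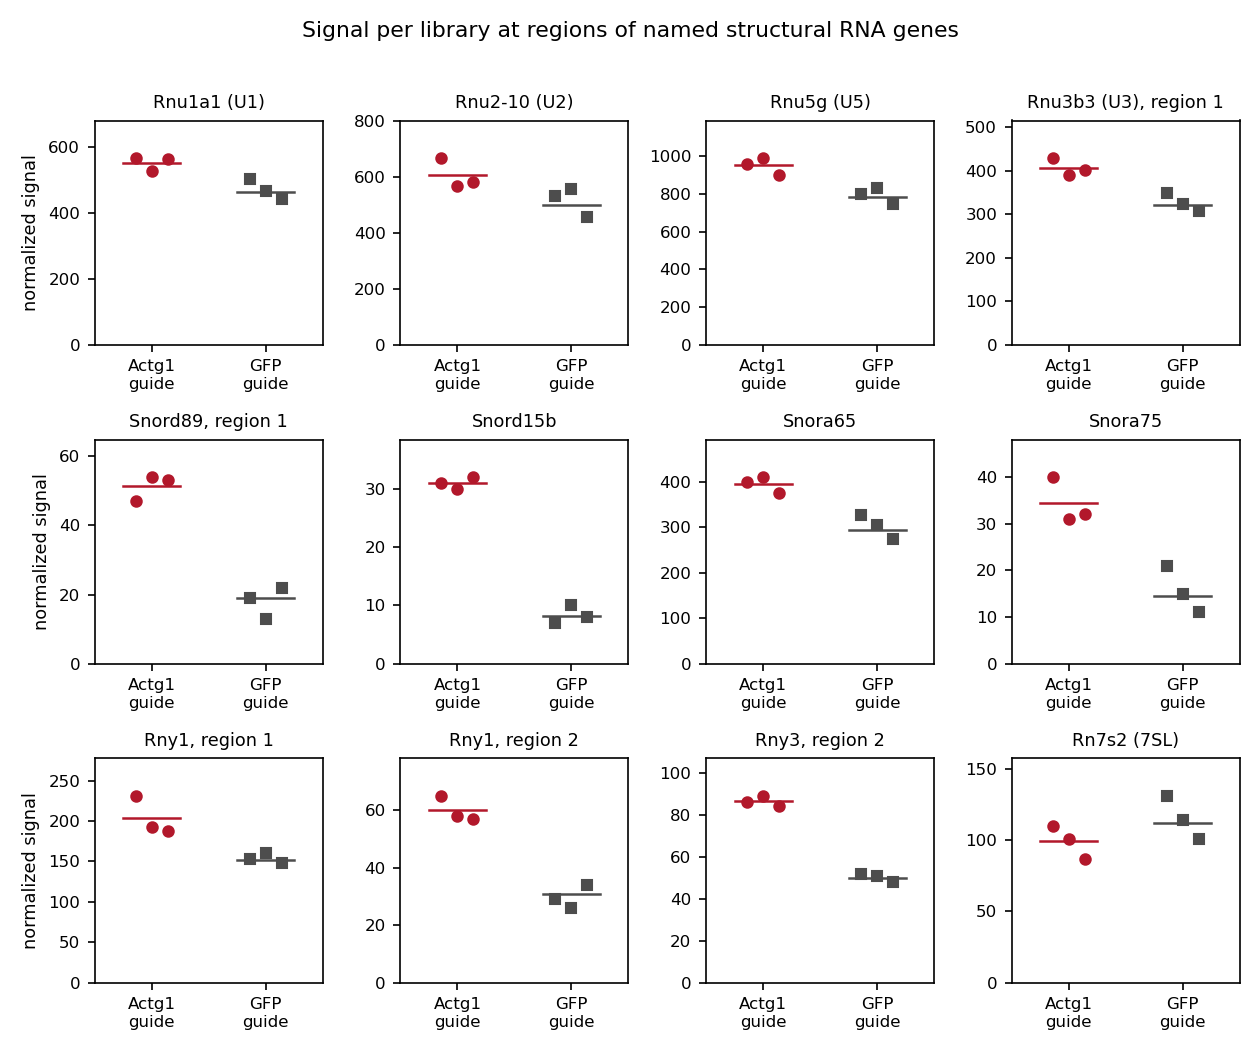
Normalized signal in each library at 12 regions of snRNA, snoRNA, Y and 7SL genes, Actg1 guide (red circles) beside GFP guide (grey squares), with the group means as lines; each panel starts at 0. The Actg1 guide libraries lie above the GFP guide libraries in 11 panels, and the Rn7s2 values overlap.

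Large snoRNA changes were again at predicted genes. A snoRNA gene on chromosome 9 (chr9:88916729-88916954) had 52, 64 and 48 with the Actg1 guide, against 7, 7 and 11 with the GFP guide, the largest rise of all small RNA gene regions (log2 fold change 2.50, SE 0.25, adjusted p = 1.02e-10). Gm25396 had 84, 84 and 79 with the Actg1 guide, against 19, 17 and 16 with the GFP guide (log2 fold change 2.21). The largest falls were at Gm25613, inside the amino acid transporter gene Slc16a10, with 5, 9 and 12 against 43, 41 and 47 (log2 fold change -2.30), and at Gm24696, with 7, 14 and 10 against 47, 46 and 59 (log2 fold change -2.28). All of these groups stood apart, and no alternative ended these calls.

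The Y RNA genes Rny1 and Rny3 encode RNAs bound by the Ro60 protein, and they lie side by side on chromosome 6. All 4 of their regions were higher. Over Rny1 (region 1, chr6:47787874-47789013) the signal was 231, 193 and 187 with the Actg1 guide, against 153, 160 and 148 with the GFP guide (log2 fold change 0.41, adjusted p = 0.00112). At 2772 bp (region 2) it was 65, 58 and 57 with the Actg1 guide, against 29, 26 and 34 with the GFP guide, 1.95-fold higher (log2 fold change 0.95, SE 0.19, adjusted p = 6.91e-05). Neither pair of groups overlapped. Rny3 had 86, 89 and 84 at 977 bp (region 2) with the Actg1 guide, against 52, 51 and 48 with the GFP guide, 1.74-fold higher (log2 fold change 0.78, adjusted p = 4.99e-05). Over Rny3 itself the values 77, 84 and 57 overlapped with 53, 59 and 37 (log2 fold change 0.64, adjusted p = 0.00367). The calls over the 2 genes themselves ended without GFP guide replicate 3 (adjusted p = 0.0871 for Rny1 and 0.317 for Rny3) and in the fit without a trend, and that over Rny3 also without Actg1 guide replicate 1 or 2. No alternative ended the other calls.

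Other misc_RNA regions varied in size and sign. The 7SL gene Rn7s2, which encodes the RNA of the signal recognition particle, had 110, 101 and 87 with the Actg1 guide, against 131, 114 and 101 with the GFP guide, and was not called (log2 fold change -0.17, adjusted p = 0.324). A region at the vault RNA locus on chromosome 18 (chr18:36801461-36802106) had 438, 388 and 435 with the Actg1 guide, against 378, 395 and 392 with the GFP guide, with overlap (log2 fold change 0.11, adjusted p = 0.218). The strongest misc_RNA region, in Pvt1 (chr15:62078991-62079896), had 696, 688 and 671 with the Actg1 guide, against 602, 631 and 636 with the GFP guide. It showed no overlap and missed the threshold (log2 fold change 0.13, adjusted p = 0.0529). A region over a misc_RNA gene on chromosome 16 (chr16:23422944-23423544) had 85, 82 and 90 with the Actg1 guide, against 29, 20 and 27 with the GFP guide (log2 fold change 1.70, adjusted p = 1.33e-10). A region in Hoxa11os, antisense to the limb patterning gene Hoxa11, had 60, 91 and 53 with the Actg1 guide, against 127, 123 and 131 with the GFP guide (log2 fold change -0.94, adjusted p = 5.1e-06). A second region of the same misc_RNA gene was higher, with 205, 223 and 213 with the Actg1 guide, against 148, 187 and 164 with the GFP guide (log2 fold change 0.36, adjusted p = 0.00181). These 3 regions showed no overlap, and of their calls only that of the second Hoxa11os region ended, without GFP guide replicate 3 (adjusted p = 0.053). The largest misc_RNA rise was at chr12:32351811-32352059, with 74, 85 and 74 with the Actg1 guide, against 24, 16 and 22 with the GFP guide (log2 fold change 1.84, adjusted p = 1.1e-10). The largest fall was at chr19:32974752-32975186, with 20, 9 and 14 with the Actg1 guide, against 58, 43 and 51 with the GFP guide (log2 fold change -1.82, adjusted p = 1.07e-06). Both stood apart from the other group in every library, and no alternative ended either call. One misc_RNA gene on chromosome 5 had 3 of 4 regions higher, of which that at chr5:29710644-29711151 had 128, 166 and 140 with the Actg1 guide, against 56, 63 and 67 with the GFP guide (log2 fold change 1.17, adjusted p = 1.34e-09). This gene was noticed after its values were seen, and its weaker calls (log2 fold changes 0.54 and 0.59) ended in the fit without a trend, the one at 0.59 also without Actg1 guide replicate 3, with adjusted p up to 0.0885 and 0.0926.

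The rRNA regions were assigned to genes typed as rRNA, all but n-R5s13 without a RefSeq name, and 25 of 55 were called, 45.5% beside 41.3% of all regions. Each of 2 rRNA genes on chromosome 5 had 2 lower, neighbouring regions. In the stronger pair, that over the gene (chr5:53346099-53346500) had 36, 47 and 28 with the Actg1 guide, against 82, 93 and 95 with the GFP guide (log2 fold change -1.31, SE 0.19, adjusted p = 2.78e-07). The next one (chr5:53346679-53347778) had 159, 168 and 161 with the Actg1 guide, against 284, 338 and 292 with the GFP guide (log2 fold change -0.89, SE 0.09, adjusted p = 1.94e-10). In both, every Actg1 guide library lay below every GFP guide library. In the weaker pair, the region at chr5:53420006-53420277 had 8, 7 and 9 with the Actg1 guide, against 30, 20 and 31 with the GFP guide (log2 fold change -1.69, adjusted p = 0.000121), and that at chr5:53420806-53421007 had 6, 9 and 6 against 27, 21 and 20 (log2 fold change -1.54, adjusted p = 0.00119), again without overlap. A strong region in Trerf1 (chr17:47293865-47294588), the gene of a transcription regulator, had 550, 569 and 621 with the Actg1 guide, against 802, 867 and 828 with the GFP guide (log2 fold change -0.52, adjusted p = 6.52e-10). The largest rise was at chr11:72281571-72281938, with 54, 55 and 48 with the Actg1 guide, against 13, 15 and 15 with the GFP guide (log2 fold change 1.78, adjusted p = 1.74e-08). The largest fall was at a weak region in Alox5ap (chr5:149284286-149284511), with 7, 3 and 7 with the Actg1 guide, against 24, 23 and 31 with the GFP guide (log2 fold change -2.14, adjusted p = 3.95e-05). No alternative ended these 7 calls. The regions of the weaker pair and that in Alox5ap passed the filter through the GFP guide libraries alone. Their lack of overlap is therefore no separate support. The region of the 5S gene n-R5s13 lay 2853 bp from its TSS and did not cover the gene. It had 46, 51 and 39 with the Actg1 guide, against 20, 32 and 29 with the GFP guide, without overlap. This call (log2 fold change 0.69, adjusted p = 0.00642) ended without GFP guide replicate 3.

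All 4 scaRNA regions overlapped between groups, and none had an unadjusted limma p under 0.05. The strongest (chr3:108554119-108554996) had 203, 239 and 223 with the Actg1 guide, against 229, 193 and 183 with the GFP guide (log2 fold change 0.17, adjusted p = 0.152). The region near Snhg20 had 99, 81 and 78 with the Actg1 guide, against 111, 98 and 91 with the GFP guide (log2 fold change -0.19, adjusted p = 0.295), and those of Gm25913 and Gm25624 had log2 fold changes of -0.04 and -0.10.

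Some genes had several regions. Of 183 genes with at least 2 tested regions, 47 had at least 2 called ones, and these were all higher in 20 genes, all lower in 16 and of both signs in 11. The same count was not made over all genes of the table, where 41.3% of regions were called. These counts therefore show no trait of small RNA genes. At Mir6926, the lower region described above stood beside a second lower region (log2 fold change -0.32) and a higher one at 4015 bp with 48, 34 and 31 with the Actg1 guide, against 28, 22 and 23 with the GFP guide (log2 fold change 0.61, adjusted p = 0.0328). The weaker lower call ended without Actg1 guide replicate 2 or 3 or GFP guide replicate 1 or 3, with adjusted p up to 0.227. The higher call ended without Actg1 guide replicate 1 or 2 or GFP guide replicate 2 or 3, and under cyclic loess scaling, with adjusted p up to 0.225, and both also ended in the fit without a trend.

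Genes that make or carry small RNAs changed by less than 2-fold at their promoters. Of 107 such genes, 88 had a region within 1 kb of the TSS, and of the 93 regions 17 were higher and 15 lower, 34.4% beside 32.7% of all regions within 1 kb of a TSS. Among microRNA processing genes 2 of 15 regions were higher and 3 lower. Xpo5, which exports the hairpins from the nucleus, had 571, 577 and 585 in the Actg1 guide libraries, against 424, 465 and 440 in the GFP guide libraries (log2 fold change 0.38, adjusted p = 1.59e-06). Prkra, a Dicer partner, had 741, 730 and 704 with the Actg1 guide, against 922, 832 and 915 with the GFP guide (log2 fold change -0.31, adjusted p = 4.67e-06), a call that ended in the fit without a trend (adjusted p = 0.0619). Neither pair of groups overlapped. The promoter of the other Dicer partner, Tarbp2, was higher (log2 fold change 0.16), and Ran and Tnrc6a were lower (log2 fold changes -0.21 and -0.26).

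In the snRNP list 5 of 27 regions were higher and 5 lower, 37.0% called. Over all regions within 1 kb of a TSS, 32.7% were called. Snrnp70, a protein of the U1 particle, had 259, 242 and 259 with the Actg1 guide, against 181, 184 and 202 with the GFP guide (log2 fold change 0.40, adjusted p = 0.000353). Phax, the adaptor for snRNA export, had 393, 339 and 369 with the Actg1 guide, against 498, 481 and 516 with the GFP guide (log2 fold change -0.46, adjusted p = 1.13e-06). The groups did not overlap at either gene. In the snoRNP list 4 of 13 regions were higher, at Fbl, Nop58, Nolc1 and Wrap53, and 2 lower, at Dkc1 and Gar1, both proteins of the H/ACA particle. Of 16 RNA polymerase III regions 1 was called, that of Polr3f (log2 fold change -0.19, adjusted p = 0.0199). Whether the share called differs between these short lists was not tested. Of 11 regions of 7SK, Y and vault RNA partners, 4 were higher, at 2 of 3 Hexim1 regions, Hexim2 and Cdk9, and 2 lower, at Ccnt2 and Tep1. RNA polymerase I genes had 2 of 11 regions higher, Polr1c and Ubtf, and 2 lower, Rrn3 and Taf1b. Without GFP guide replicate 3, 5 of the 32 calls passed, and the 4 that no alternative ended were those of Xpo5, Snrnp70, Phax and Lsm10.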

How the data were processed

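ATAC-seq libraries were made from 25000 cells each, with 30 min of transposition at 37 °C, and sequenced paired-end on a NextSeq2000, per the labels' protocols. The submitters' processing notes name mm10, Trimmomatic 0.39, STAR 2.7.10a, Picard 3.0.0, featureCounts and DESeq2 1.36.0, without roles. The values the authors deposited are 1 normalized signal per region and library, rounded to whole numbers, so no count test was run; how reads that map to several places, or strand, were handled is not given in the sources used here. Peaks were those of the table, with its gene assignment and 1-based mm10 positions. The table also holds the fraction of each region inside its gene, as deposited.

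Regions that reached a signal of 10 in 3 or more libraries were tested with limma 3.58.1 in R 4.3.3 (empirical Bayes with a mean-variance trend) on log2(signal + 1), which understates folds of low regions, and p-values were adjusted by Benjamini-Hochberg over 61327 regions, of which 1104 of the 1142 small RNA gene regions were part. The call was an adjusted p under 0.05. A region could pass the filter through 1 group alone, and its lack of overlap is then no separate support. The GFP guide replicates 1 and 2 showed no difference beyond sampling noise (chi-square per region 0.990, p = 0.947, other pairs 1.04 to 1.13) and were averaged. Ratios and folds set mean signal of the Actg1 guide over the GFP guide, GFP guide means being over the average of replicates 1 and 2 and replicate 3. Depth was estimated from the value of 1 read in the deposited signal (0.807 to 1.35). The procedure was tested on simulated data. Names came from RefSeq (GRCm38.p6) genes sharing at least 80% of the length, which matched 644 regions of 510 genes, and microRNA sequences needed identical ends. Named were the regions with the largest changes or signals by type, regions of listed microRNAs, genes with a curated symbol, and, chosen after their values were seen, families sharing a seed and the genes Mir139, Mir185 and Mir6950. Some further regions, such as those of Gm25408, Gm26316 and Gm22068, fell under none of these rules. The members and lists were chosen with earlier results of these data known. The alternatives were other pseudocounts, filters, scalings, 6 separate libraries, the replicate block, no trend, and leaving out each library; voom on estimated reads was added after seeing the data. A few named regions are not reported here.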

Additional observations from a re-analysis of the deposited data

How the results depend on the processing

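Over 17 alternatives, no tested region named by the rules above changed sign while called, and 211 of 473 called small RNA gene regions stayed called in every one that tested them. The change of sign was not checked for other regions in the text, such as those of Gm26316, Gm22068 and Gm25408 and the machinery promoters. Leaving out 1 library gave 156 to 261 higher and 89 to 207 lower regions, and by type 98 to 173 miRNA, 50 to 108 snoRNA, 57 to 108 snRNA, 22 to 53 misc_RNA, 18 to 26 rRNA and 5 to 33 promoter regions of small RNA machinery genes. The low end of each range was that without GFP guide replicate 3, which leaves 1 GFP guide sample, assumed to vary like the other group. The fit without a mean-variance trend gave 142 lower, 74 snRNA, 34 misc_RNA and 6 machinery calls. Only within 1 kb of the TSS there were 72 higher and 39 lower regions, of which 43 were miRNA, 25 snoRNA, 30 snRNA, 10 misc_RNA and 3 rRNA regions. The cause of these shifts was not tested, beyond the fewer samples or regions. The replicate numbers do not pair the samples (correlations of 0.014 to 0.025 between same-numbered deviations), and with the replicate block on 6 libraries there were 280 higher and 250 lower calls, against 275 and 242 without it. The planned count test was not run, since the values are rounded after normalization. Regions with a signal of a few units, such as the strongest fall at Mir365-2, rest on few reads.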
